A study of Mus musculus with 2 samples.

Results

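The clustered histone genes encode the bulk of the core histones H2A, H2B, H3 and H4 and of the linker histone H1, and they lie in tight groups in the mouse genome. They were taken from the deposited table as the rows whose Entrez identifier belongs to a protein-coding RefSeq gene named Hist1h, Hist2h, Hist3h or Hist4h, or renamed from one of these. Of 70 such RefSeq genes, 67 were protein coding and 3 were pseudogenes, and all 67 had a row among the 44002 rows of the table. They comprised 5 genes for H1, 17 for H2A, 17 for H2B, 12 for H3 and 13 for H4, with 3 testis variants kept apart: Hist1h1t (H1), Hist1h2ba (H2B) and Hist1h2aa (H2A). The choice used gene names only and no measured value.

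The RNA came from whole testis of BALB/c mice, 45 days after birth, and made up 2 libraries. The BPA library came from mice labelled as exposed to bisphenol A, a plasticiser with weak oestrogen-like activity, and the control library carries no treatment label. The sources used here do not give dose, route or duration, and no genetic change is labelled in either group. In each group 3 samples were mixed before sequencing, so each group has 1 library, nothing measures how samples of a group vary, and no test of BPA exposure could be made. Levels are in CPM, in which each library is scaled to the same total, and a gene under 1 CPM had at most 41 control reads or 45 BPA reads.

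In most dividing cells clustered histone genes are transcribed in S phase, and their mRNAs end in a short stem-loop in place of a poly(A) tail. The stem-loop is bound by the protein Slbp and cut just downstream, so oligo(dT) beads, which were used to make these libraries, capture such mRNAs poorly. Some of the genes also give polyadenylated transcripts that end at a poly(A) signal further downstream, which is known in differentiated and in germ cells. The replacement histone genes H3f3a and H3f3b lie outside the clusters, contain introns and give polyadenylated mRNA throughout the cell cycle. In male germ cells testis variants join the canonical histones during meiosis, and after meiosis most histones give way to transition proteins and then protamines.

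Both kinds of 3′ end could be read in the annotation, and 4 stem-loops are printed because they belong to the most abundant member per length of H2A, H2B and H4 and to the testis linker variant. Each is given 5′ to 3′ on the gene's strand in build GRCm38, with 5 bases on either side and the paired stem in capitals. Hist2h2aa1 lies at chr3:96246027-96246052 (plus strand), Hist1h2bp at chr13:21787918-21787943 (plus), Hist1h4a at chr13:23760795-23760820 (minus) and Hist1h1t at chr13:23696520-23696545 (plus), each in the 3′ UTR.
Hist2h2aa1: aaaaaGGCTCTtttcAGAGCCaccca
Hist1h2bp: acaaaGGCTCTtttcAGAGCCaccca
Hist1h4a: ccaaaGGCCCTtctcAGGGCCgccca
Hist1h1t: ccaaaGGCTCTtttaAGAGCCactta
Hist2h2aa1 and Hist1h2bp have the same stem and loop, Hist1h4a has another stem, and Hist1h1t differs from Hist1h2bp in its loop. In the RefSeq models Hist2h2aa1, Hist1h4a and Hist1h1t end at the last base printed here.

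The poly(A) signals of 4 members are printed because their GENCODE M21 transcripts carry the hexamer AATAAA, in capitals, near the 3′ end. Hist1h1t has its signal at chr13:23696689-23696714 (plus), Hist1h2bp at chr13:21789181-21789206 (plus), Hist1h4a at chr13:23760705-23760730 (minus) and Hist2h2be at chr3:96223707-96223732 (plus). All are in 3′ UTRs, that of Hist1h2bp in a downstream exon joined by splicing.
Hist1h1t: tttacgccagAATAAAggtcaccatt
Hist1h2bp: acattataaaAATAAAggtttcaatc
Hist1h4a: aaattgagtaAATAAAccttgagtgc
Hist2h2be: tattattattAATAAAgttaccgatt
A stem-loop was found in the first 100 bases after the stop codon in 46 of the 67 genes (68.7%), against 22 of 21695 other protein-coding genes (0.101%). It began 21 to 58 bases after the stop codon, with a median of 31. A hexamer AATAAA or ATTAAA in the last 50 bases of a transcript was found in 17 of the 67 genes (25.4%), against 78.6% of the other protein-coding genes. A 3′ UTR was annotated for 54 of the 67 genes and for 21069 of the 21695 others, and genes without one count as lacking both.

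Few clustered histone genes gave a listed value. Only 16 of the 67 genes (23.9%) reached 1 CPM in either library, the level below which the authors list 0, against 67.1% of the 21657 protein-coding genes in the table. Of these 16 genes, 13 reached 1 CPM in both libraries, 3 (Hist2h2ab, Hist2h3c1 and Hist1h4h) in the BPA library only and none in the control library only. Only 5 genes reached 10 CPM in both libraries: Hist2h2aa1, Hist1h4a, Hist1h2bp, Hist2h2be and Hist2h2aa2. A further 36 genes were under 1 CPM in both libraries but had a deposited fold change, 9 were under 1 CPM without one, and 6 rows (Hist3h2a, Hist1h2ap, Hist1h2br, Hist1h3g, Hist1h3d and Hist1h2ab) held no value. Of the 67 genes, 30 share over 50% of their words, or stretches of 50 bases, with other loci, and 3 of these 30 reached 1 CPM. The median shared part was 38.4% for the 16 genes and 54.1% for the 51 others. How reads with several matches were assigned is not known, so little captured RNA and reads left uncounted cannot be told apart for such genes. In a library of mixed cells, fewer cells of a type and less RNA per cell cannot be told apart.

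Among the 16 measured genes, 1 (Hist2h3c1) was at least 2-fold higher in the BPA library and none was 2-fold lower. Over all 19389 genes at 1 CPM or more in either library, 1.32% were 2-fold higher and 1.95% were 2-fold lower. Hist2h3c1 passed the 1 CPM limit through the BPA library alone. Where the mean of both libraries had to reach 1 CPM it was left out, and none of the 15 other genes was called, against 2.2% of 18694 genes. It had 24 reads in the control library, and with 1 library a group its call has no replicate check. The median log2 ratio of BPA over control, with 0.1 CPM added to both values, was 0.24 for the 16 genes and 0.004 for all 19389 genes. Since 3 of the 16 entered through the BPA library alone, where they were high, the 13 genes at 1 CPM or more in both libraries were also described, a limit set after the data were seen. Their median log2 ratio was 0.13, against 0.007 for 17978 genes under the same limit, and 7 of 13 lay above 0. The 95% interval of the ratio, which covers counting error of the reads only, lay above 1 for 6 of the 13, below 1 for 3 and across 1 for 4. Over the 17978 genes it lay above 1 for 21.5% and below 1 for 20.1%. With the 3 genes listed in the BPA library only, 9 of 16 lay above 1 and 3 below, against 21.8% and 21.3% of all 19389 genes.

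**Figure D1:**
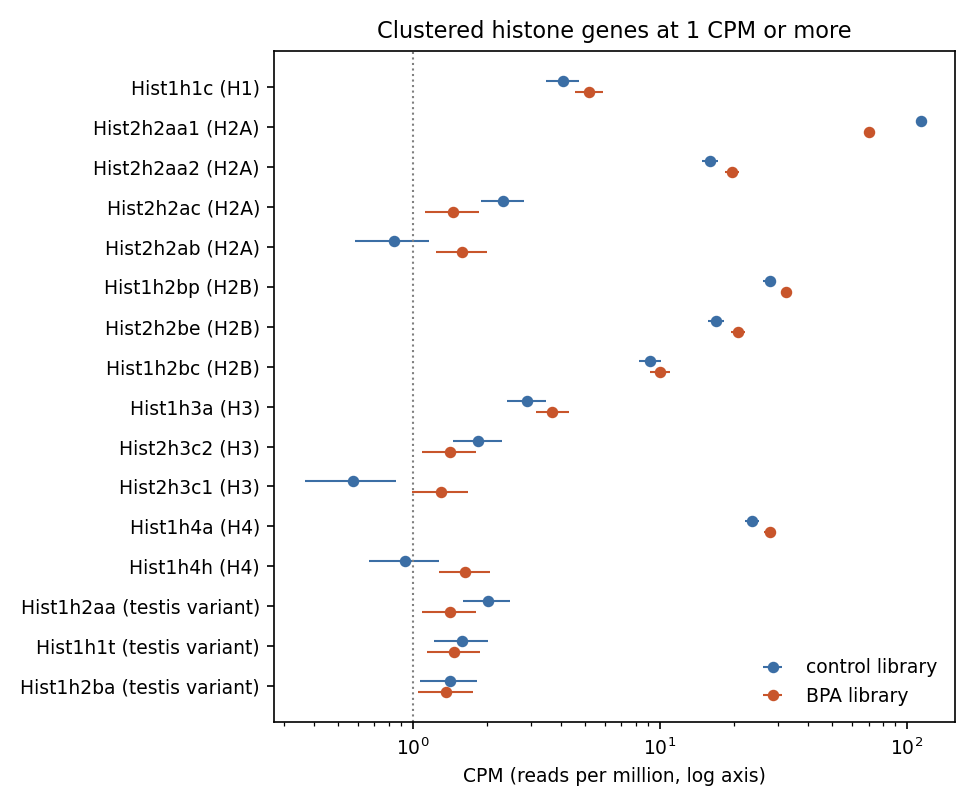
CPM on a log axis of the 16 clustered histone genes at 1 CPM or more in either library, in the control (blue) and BPA (orange) library; bars are exact 95% Poisson intervals of the reads and the dotted line is 1 CPM. Hist2h2aa1 lies at 113.9 and 70.0 CPM, and the 3 testis variants lie between 1.37 and 2.01 CPM.

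The testis variants were low in both libraries. Hist1h1t (H1f6), which encodes the linker histone H1t of spermatocytes, lies at chr13:23695811-23696545 and had 1.58 CPM in the control library and 1.48 CPM in the BPA library. Its ratio of BPA over control was 0.935 (95% interval 0.656 to 1.33), an interval that holds 1. Hist1h2ba (H2bc1), which encodes the testis H2B known as TH2B, lies at chr13:23933725-23934156 and had 1.41 and 1.37 CPM. Its ratio was 0.968 (0.667 to 1.41).

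Hist1h2aa (H2ac1), which encodes the partner TH2A, lies at chr13:23934437-23934913 and had 2.01 CPM in the control library and 1.41 CPM in the BPA library. Its ratio of 0.702 (0.499 to 0.983) was below 1 by more than the counting error. All 3 variants were lower in the BPA library, with a summed 5.0 CPM against 4.25 CPM and a ratio of 0.851 (0.696 to 1.04). They held 2.21% (exact Clopper-Pearson interval 1.93 to 2.53) of the reads of the 16 genes in the control library and 2.11% (1.83 to 2.43) in the BPA library. The intervals of these shares overlap. The 13 genes with under 50% of their words at other loci leave out Hist2h2aa1, Hist2h2aa2 and Hist2h3c2. In this set the shares were 5.31% (4.63 to 6.06) and 3.85% (3.34 to 4.43), and these intervals do not overlap. Like the 16 genes, this set holds Hist2h2ab, Hist2h3c1 and Hist1h4h, which passed the 1 CPM limit through the BPA library alone. The limit thus favours a lower share of the testis variants in the BPA library. Per length, the variants held 3.01% and 2.91% of the summed CPM per kilobase (kb) of exon.

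Hist1h2ba and Hist1h2aa are transcribed away from each other from starts 280 bases apart. The 250 bases before the RefSeq start of Hist1h2ba, chr13:23934157-23934406 on the minus strand (GRCm38.p6), are printed because they make up most of the DNA between this pair. Capitals mark the CAAT box (CCAAT or its reverse complement ATTGG), the octamer (ATTTGCAT) and the TATA box (TATAAA), searched on both strands.
Hist1h2ba: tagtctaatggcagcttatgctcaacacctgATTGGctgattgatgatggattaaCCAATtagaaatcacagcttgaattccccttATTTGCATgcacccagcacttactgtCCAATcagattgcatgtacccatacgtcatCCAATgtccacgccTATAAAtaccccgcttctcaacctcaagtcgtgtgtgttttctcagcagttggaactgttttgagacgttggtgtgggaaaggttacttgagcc
The window holds 4 CAAT boxes, 1 octamer and 1 TATA box, and no match overlaps another. The octamer was in 1.61% of 27025 RefSeq promoters of the same length, and in 6 of 17 promoters of H2A genes, 5 of 15 of H2B genes and 2 of 3 of the testis variants. The 13 matches are 10 distinct sites, since genes transcribed away from each other share much of their windows, and the octamer printed here is the match of both Hist1h2ba and Hist1h2aa. It was in none of the 5 promoters of H1 genes, the 10 of H3 genes and the 12 of H4 genes. The CAAT box was in 51 of 62 promoters of clustered histone genes (82.3%) against 34.5% of all promoters, with 3 of 12 for H4. The TATA box was in 29 of the 62 (46.8%) against 12.97% of all. Of 140 CAAT box matches 106 were distinct sites, and of 35 TATA box matches 32. A match describes the sequence and was not tested for binding.

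H2A genes carried the most reads, and most of them came from 1 gene. Hist2h2aa1 (H2ac18), at chr3:96245497-96246052, had 113.9 CPM in the control library and 70.0 CPM in the BPA library, or 4762 and 3176 reads. It was 1.63-fold lower in the BPA library (ratio 0.614, 0.587 to 0.643) with a log2 ratio of -0.70. Its share of the reads of the 16 genes was 50.4% in the control library and 34.8% in the BPA library. No other member at 10 CPM or more in both libraries was lower in the BPA library.

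Hist2h2aa1 cannot be counted cleanly. It shares 96.3% of its words of 50 bases with other loci, and 89.2% with Hist2h2aa2 (H2ac19), the inverted copy at chr3:96239779-96240374. All words of Hist2h2aa2 occur in Hist2h2aa1. Hist2h2aa2 had 16 CPM in the control library and 19.6 CPM in the BPA library, a ratio of 1.23 (1.11 to 1.36), so the near-identical copies went in opposite directions. Their sum was 129.9 and 89.6 CPM, a ratio of 0.690 (0.662 to 0.719). Hist2h2aa1 also overlaps exons of Gm20633 and Gm20634, and Hist2h2aa2 overlaps Gm20632. The sources used here do not say how reads with several matches were assigned or whether strand was used.

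The other measured H2A genes were low. Hist2h2ac (H2ac20), next to Hist2h2be in the chromosome 3 group, had 2.32 CPM in the control library and 1.45 CPM in the BPA library, a ratio of 0.627 (0.451 to 0.866). Hist2h2ab (H2ac21) had 0.837 and 1.59 CPM, a ratio of 1.90 (1.25 to 2.92), and overlaps exons of Gm15444. Summed, the 4 H2A genes had 133.1 CPM in the control library and 92.7 CPM in the BPA library, a ratio of 0.696 (0.669 to 0.725). Without Hist2h2aa1 the direction turned, with 19.2 and 22.7 CPM and a ratio of 1.18 (1.08 to 1.30). This sum includes Hist2h2ab, which passed the 1 CPM limit through the BPA library alone.

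The 3 measured H2B genes were each higher in the BPA library. Hist1h2bp (H2bc22) had 27.8 CPM in the control library and 32.6 CPM in the BPA library, a ratio of 1.17 (1.08 to 1.26). Hist2h2be (H2bc21), whose annotated transcript runs 2192 bases past its stop codon, had 17.0 and 20.7 CPM, a ratio of 1.22 (1.10 to 1.35). Hist1h2bc (H2bc4) had 9.14 and 10.03 CPM, a ratio of 1.10 (0.956 to 1.26), and this interval holds 1. The class sum was 53.9 and 63.3 CPM, a ratio of 1.17 (1.11 to 1.24).

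Of the H4 genes, 2 of 13 were measured. Hist1h4a (H4c1), at chr13:23760795-23761249, had 23.6 CPM in the control library and 27.99 CPM in the BPA library, a ratio of 1.19 (1.09 to 1.29). Hist1h4h (H4c8) had 0.933 and 1.63 CPM, a ratio of 1.75 (1.17 to 2.65). All H4 genes encode the same or nearly the same protein, so the locus named here refers to the RNA. The sum of both was 24.5 and 29.6 CPM, a ratio of 1.21 (1.11 to 1.31). Hist1h4h passed the 1 CPM limit through the BPA library alone, so its ratio could only lie above 1.

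H3 and H1 were the least abundant classes. Hist1h3a (H3c1) had 2.89 CPM in the control library and 3.68 CPM in the BPA library, a ratio of 1.27 (1.00 to 1.62). Hist2h3c2 (H3c15) had 1.84 and 1.41 CPM, a ratio of 0.766 (0.541 to 1.08), and shares 63.5% of its words with other loci. Hist2h3c1 (H3c14), the gene called 2-fold higher, had 0.574 and 1.30 CPM from 24 and 59 reads, a ratio of 2.26 (1.39 to 3.81), and overlaps an exon of Gm20634. Neither it nor Hist2h3c2 reached 2 CPM in either library. The interval of Hist2h3c1 reaches down to 1.39-fold.

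Among the linker genes, Hist1h1c (H1f2) alone was measured, with 4.04 CPM in the control library and 5.18 CPM in the BPA library and a ratio of 1.28 (1.05 to 1.57). The H3 sum was 5.31 and 6.39 CPM, a ratio of 1.203 (1.007 to 1.440). It includes Hist2h3c1, which passed the 1 CPM limit through the BPA library alone, so the limit favours a ratio above 1. The H3 median log2 ratio was 0.34, and -0.013 with 1 CPM or more in both libraries.

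**Figure D2:**
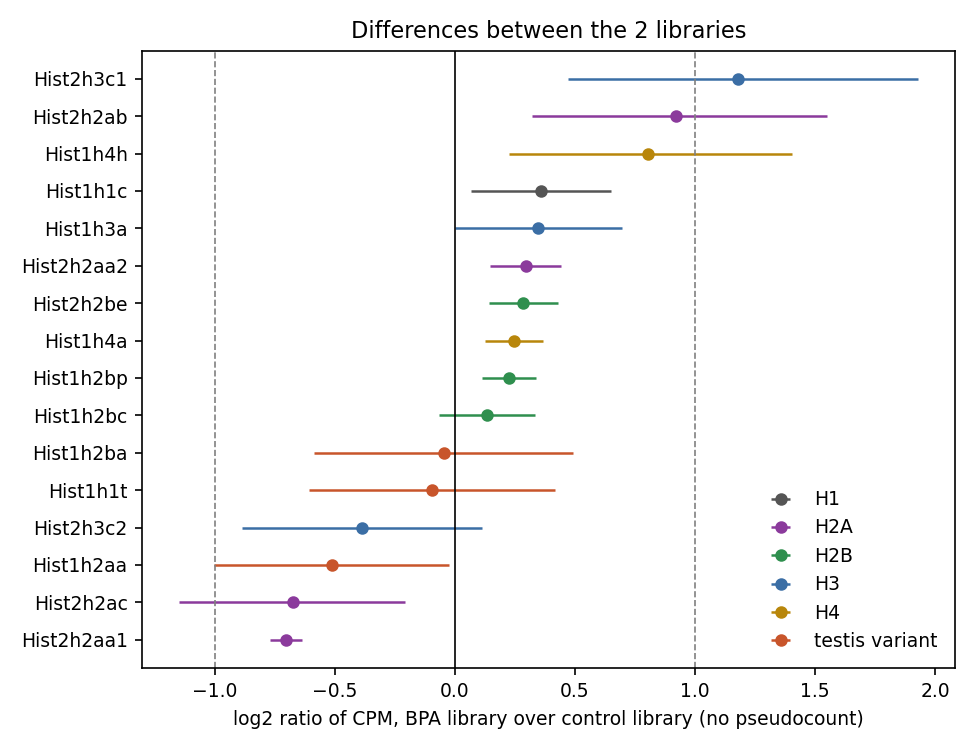
Log2 ratio of CPM, BPA over control library and without an added constant, for the 16 measured genes coloured by class; bars are exact 95% intervals of the reads and dashed lines mark a 2-fold difference. Hist2h2aa1 has the narrowest interval among the 6 genes below 0, and the genes above 0 include all 3 H2B genes and both H4 genes. Hist1h4h (H4), Hist2h2ab and Hist2h3c1 passed the 1 CPM limit through the BPA library alone, so they could only lie above 0.

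Summed over all 16 genes, clustered histone RNA stood at 225.9 CPM in the control library and 201.4 CPM in the BPA library, a ratio of 0.891 (0.866 to 0.918). That direction rested on Hist2h2aa1: the other 15 genes summed to 112.0 and 131.4 CPM, a ratio of 1.17 (1.13 to 1.22). Without Hist2h2aa2 as well, the 14 left summed to 96.0 and 111.8 CPM, a ratio of 1.16 (1.12 to 1.21). The sum over the measured genes of chromosome 13 was 73.4 CPM in the control library and 85.3 in the BPA library, and that of chromosome 3 without Hist2h2aa1 was 38.5 and 46.1 CPM. These ratios, 1.16 (1.11 to 1.22) and 1.195 (1.119 to 1.276), have overlapping intervals. The sums of 16, 15 and 14 genes include Hist2h2ab, Hist2h3c1 and Hist1h4h, which passed the 1 CPM limit through the BPA library alone. Hist1h4h is also in the chromosome 13 sum, and Hist2h2ab and Hist2h3c1 are in that of chromosome 3.

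**Figure D3:**
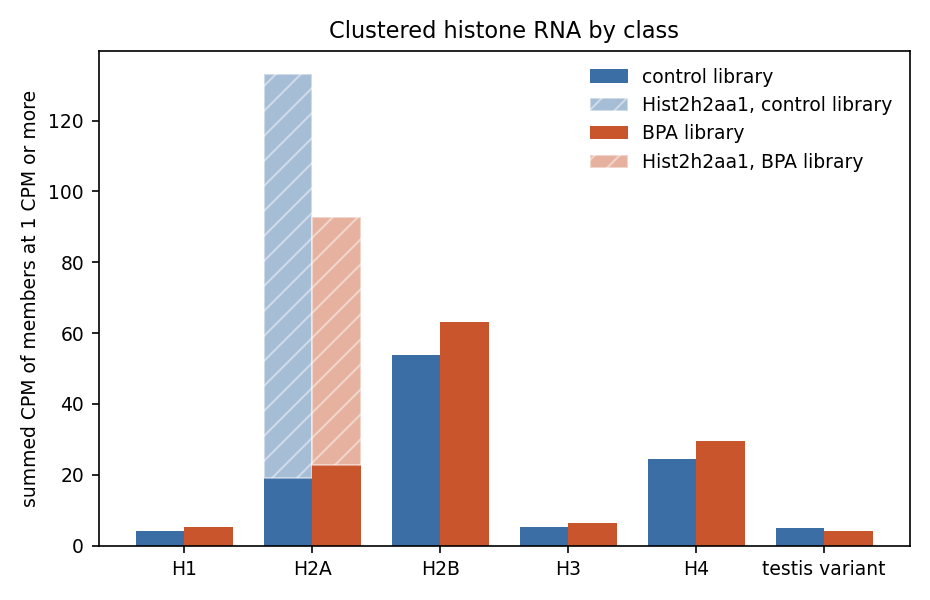
Summed CPM of the measured clustered histone genes by class, in the control (blue) and BPA (orange) library, with Hist2h2aa1 hatched on top of the other H2A genes. The H2A bars stand at 133.1 and 92.7 CPM with Hist2h2aa1 and at 19.2 and 22.7 CPM without it.

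Compared per kb of exon, Hist2h2aa1 led in both libraries, at 194.4 CPM per kb in the control library and 119.4 in the BPA library. Hist1h4a followed with 43.8 and 51.9, Hist1h2bp with 39.4 and 46.1, and Hist2h2aa2 with 30.3 and 37.2 CPM per kb. The next were Hist1h2bc with 7.91 and 8.67, Hist2h2be with 6.47 and 7.89 and Hist1h3a with 5.42 and 6.89 CPM per kb, so the first 7 kept 1 order in both libraries. Hist1h2aa had 5.15 and 3.62 CPM per kb, Hist1h2ba 3.68 and 3.56 and Hist1h1t 1.73 and 1.62. Exon lengths are from GENCODE M21 and may differ from the gene models behind the deposited values, which would change levels per kb. For Hist1h1c the exons hold 1560 bases, and its RefSeq gene spans 725. The annotated models of Hist1h2aa and Hist1h2ba hold the coding length only. On coding length alone Hist2h2be stood at 44.5 CPM per kb in the control library, the 4th level and not the 6th.

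The level of a gene was then set beside its annotated 3′ end. Of the 46 genes with a matched stem-loop, 27 were counted as running 50 bases or more past it, and 7 of these reached 1 CPM (25.9%). Of the 19 whose transcripts end nearer to it, 4 did (21.1%). Hist1h2bp is among the 7, though its transcript with the stem-loop ends 38 bases past it. It was counted through a spliced transcript that lacks the stem-loop and has a 3′ UTR of 150 bases. The order of these shares depends on how Hist1h2bp is counted. With the limit at 200 bases, and transcripts without a match counted by 3′ UTR length, the order turned. Then 5 of 22 (22.7%) past it and 8 of 28 (28.6%) within it reached 1 CPM. Of the 21 genes without a match, 5 reached 1 CPM, among them Hist1h2bc and Hist2h2be, whose 3′ UTRs run past the place where other members end. Of the 17 genes with a hexamer near a transcript end, 7 reached 1 CPM (41.2%), among them Hist1h2bp, Hist1h4a, Hist2h2be, Hist1h1c and Hist1h1t. Of the 50 without one, 9 did (18%), among them Hist2h2aa1. Genes whose models hold no 3′ UTR are counted among the 21 without a stem-loop match and the 50 without a hexamer. These shares describe the annotation and the measured levels, and genes are not independent replicates.

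Below 1 CPM, only the authors' deposited table's fold change tells the libraries apart. In the authors' deposited table the log2 fold change of the 36 such genes ran from -3.29 for Hist2h2bb to 2.47 for Hist4h4. Each value equalled a ratio of whole read numbers under the 1 CPM limit. The smallest that fit were 9 control reads to 1 BPA read for Hist2h2bb, and 1 control read to 6 BPA reads for Hist4h4. Multiples of these fit as well, up to 36 control reads to 4 BPA reads and 7 control reads to 42 BPA reads, so the read numbers are not known. After scaling, 18 genes were above 0 and 18 below, with a median log2 fold change of -0.04 beside -0.12 for all 9897 genes under 1 CPM with a fold change, all in the authors' deposited table. In 7 of the 36 the smallest fit was an equal number of reads, which the scaling puts at -0.12. None of the 28 genes called by the authors is a clustered histone gene, and the smallest q-value in the authors' deposited table among 52 of them was 0.476.

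Captured RNA of clustered histone genes was compared per length with that of other histone genes of the same class; RNA without a poly(A) tail is captured poorly, so these are levels in these libraries and not shares of all histone RNA. For H3, the replacement genes H3f3a and H3f3b summed to 302 CPM per kb in the control library and 304 in the BPA library, against 7.54 and 8.99 for the clustered genes. For H1, the spermatid genes H1fnt and Hils1 summed to 1128 and 1253 CPM per kb and the replacement genes H1f0 and H1fx to 77.0 and 62.8, against 2.59 and 3.32 for Hist1h1c. For H2A the clustered genes gave 231 and 163 CPM per kb, beside 210 and 220 for replacement genes such as H2afz and 490 and 573 for the other testis genes, led by H2al2a. For H2B they gave 53.8 and 62.7 CPM per kb, against 241 and 232 for the testis genes H2bl1 and H2bfm. H4, which has no replacement gene in the lists used, had 45.7 and 55.4 CPM per kb.

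**Figure D4:**
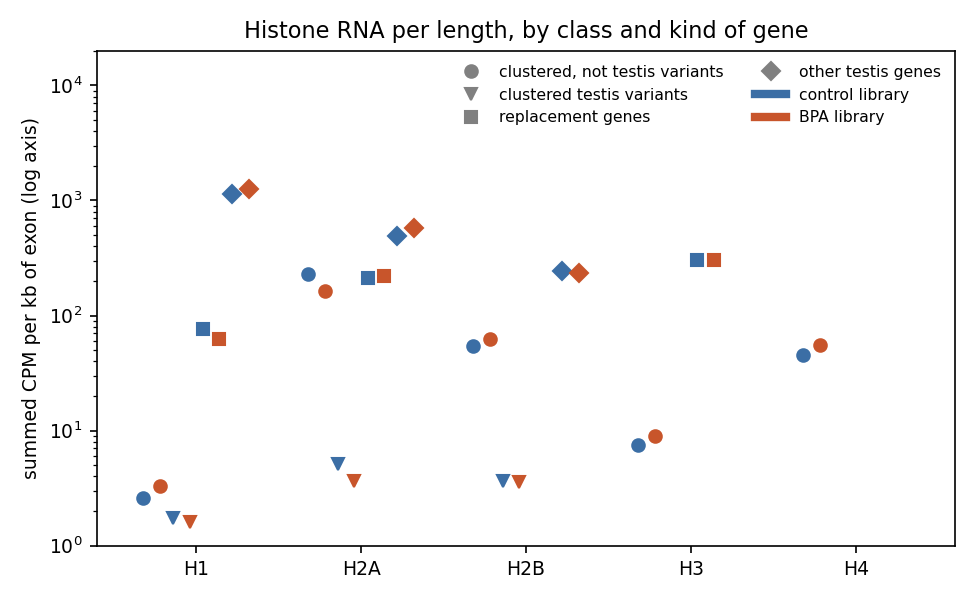
Summed CPM per kb of exon on a log axis for each histone class, split into clustered genes, clustered testis variants, replacement genes and testis genes outside the clusters, in the control (blue) and BPA (orange) library. Replacement genes stand above clustered genes for H1 and H3, and clustered H2A genes stand at 231 and 163 beside replacement genes at 210 and 220.

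No list of genes that act with histones or their mRNA held more than 1 gene called at 2-fold. Over all 19389 genes 3.28% were called in either direction, a share at which lists of 8 to 51 genes would hold few calls. None of 11 replacement histone genes was 2-fold higher or lower, with a median log2 ratio of 0.01 and the largest difference at H1fx (75.3 and 57.9 CPM, log2 ratio -0.38). None of 8 measured testis histone genes outside the clusters was called (median 0.18); the largest difference was at H2al3, with 22.3 CPM in the control library and 31.8 in the BPA library. None of 44 genes of histone mRNA 3′ processing and decay was called (median -0.03). Among them Slbp, the stem-loop binding protein, had 103.2 and 104.1 CPM, and Nelfe, a subunit of the negative elongation factor, had 9.26 and 16.1 CPM (log2 ratio 0.79). Lsm10, a subunit of the U7 particle that directs the stem-loop cut, had 49.3 and 39.2 CPM (log2 ratio -0.33).

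Of 51 genes of S phase and DNA replication, 1 was 2-fold higher and none lower, with a median of 0.06. It was Cdc45, a part of the replicative helicase, with 2.44 CPM in the control library and 15.2 CPM in the BPA library. Of 28 histone chaperones, none was 2-fold higher and 1 was lower, with a median of 0.03. It was Hira, which deposits H3.3, with 3.37 CPM and 0.529 CPM. None of 8 spermatid chromatin genes was called (median -0.003); Prm1, a protamine, had 1463 and 1762 CPM, and Tnp2, a transition protein, had 5257 and 6120 CPM.

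Marker lists of germ cells were well covered and gave no 2-fold call, where 3.28% of all genes were called. All 16 markers of spermatocytes summed to 5765 CPM in the control library and 6026 in the BPA library. All 14 of round spermatids summed to 2788 and 2771, and all 13 of elongating spermatids to 26211 and 27400. For spermatogonia, which divide and replicate their DNA, 17 of 18 markers reached 1 CPM, with 1639 and 1592 CPM in sum. Most of that sum came from Dmrtb1 (819.4 and 824.0 CPM) and Ddx4 (585.2 and 526.8 CPM). Of the 17 markers, 11 lay above 0, with a median log2 ratio of 0.05. Of 17 Sertoli cell markers 15 lay above 0, with a median log2 ratio of 0.20 and sums of 1308 and 1488 CPM, and 1 (Rhox8) was 2-fold lower. Of 9 Leydig cell markers 8 lay above 0 (median 0.10, sums of 917.3 and 974.8 CPM). The 9 measured macrophage markers had a median of 0.01, and none of the Leydig or macrophage markers was called. Of 11 measured adipose markers 7 were 2-fold lower in the BPA library (median log2 ratio -1.91, with 387.6 and 315.3 CPM in sum). Most of the adipose sum came from Lipe (296.6 and 285.5 CPM), which was not called. The part of these cell types in the histone values was not tested. The full scale stood for 41801885 control reads and 45377693 BPA reads.

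The measured histone genes lie in 2 chromosome groups, 9 of 54 on chromosome 13 (21715711 to 23934913) and 7 of 10 on chromosome 3 (96219885 to 96270192). None of the 2 genes on chromosome 11 or the 1 on chromosome 6 reached 1 CPM. Of the other genes within 1 Mb, 0 of 35 on chromosome 13 and 3 of 62 on chromosome 3 (Bnipl, Gm26553 and Nudt17) were 2-fold different, against 3.28% of all genes. Their median log2 ratios were -0.03 and 0.03.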

How the data were processed

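Per the submitters' processing notes, HISAT2 2.0.4, HTSeq 0.6.1 and build mm10 were used; scaling, strand setting and the handling of reads with several matches are not stated there. The authors deposited 44002 rows with columns for a p-value, a q-value, a log2 fold change and 1 value per library; 10618 rows hold no value. Although headed as read counts, the deposited values are CPM: they sum to 997834 (control) and 995266 (BPA), are whole multiples of 0.0239 and 0.0220 CPM, taken as 1 read, and are written as 0 below 1. In 1404 rows a 0 opposite 1 CPM or more was filled from the deposited log2 fold change. Since the values are not raw counts, no count test was run.

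Genes that reached 1 CPM in either library were compared by log2 ratios with 0.1 CPM added, and called at 2-fold. Ratios have exact 95% Clopper-Pearson intervals, which cover counting error only, since each group has 1 library. PCR copies are not independent molecules, so the intervals may be too narrow even for counting error. The calls and intervals were tested on simulated data with independent reads, which hold no PCR copies. Names and coordinates came from RefSeq GRCm38.p6, lengths and transcripts from GENCODE M21 and promoters from RefSeq. A stem-loop was searched as GG, 3 pyrimidines, T, any 4 bases, A, 3 purines and CC. A transcript without a match counted as running past when it reached 50 bases beyond the farthest stem-loop end, 74 bases after the stop codon. Named genes were the testis variants, called members, the 3 highest per kb in each class and the 5 largest ratios each way; from other lists, called genes or the 2 largest. Slbp and the histone genes of the comparison per kb were named for their roles. Members and lists were chosen with earlier results of these data known. Alternatives were other scalings, added constants, limits and members. Python 3.11.15, numpy 2.4.6, pandas 2.3.3 and scipy 1.17.1 were used.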

Additional observations from a re-analysis of the deposited data

How the results depend on the processing

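No paired analysis was possible because each group has 1 library. Of 48 alternatives for the 16 single genes (2 scalings and 1 CPM added), 47 kept the direction and the side of 2-fold, and 1 did not: Hist2h3c1 fell under 2-fold with 1 CPM added. The scalings took off 0.003 (TMM) and 0.004 (median of ratios) on the log2 scale. The count of genes 2-fold higher, 1 in the report, was 0 with 1 CPM added, a limit of 4 CPM, a mean of 1 CPM, 1 CPM in both libraries, 4-fold, or 2-fold of the nearer interval bound. It was 3 with listed zeros taken as 0 and 3 at 1.5-fold, where 2 were lower. In both cases the 3 were Hist2h2ab, Hist2h3c1 and Hist1h4h. A control value of 0 beside 1 CPM or more always gives a call, so the count with listed zeros was fixed in advance. Listed zeros taken as 0, 4-fold, 1 CPM in both libraries and the median without Hist2h2aa1 were chosen after seeing the data.

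The H2A median of -0.17 became -0.64 with 1 CPM in both libraries and 0.29 without Hist2h2aa1. It became 0.10 with genes that have under 50% of their words elsewhere, which for H2A are only Hist2h2ac and Hist2h2ab. Hist2h2ab passed the 1 CPM limit through the BPA library alone, so its ratio could only lie above 1. The H3 median of 0.34 became -0.013 with a mean of 1 CPM and with 1 CPM in both libraries. The H4 median of 0.50 became 2.18 with listed zeros as 0. That setting replaces the 0.933 CPM of Hist1h4h in the control library by 0, so the rise was fixed in advance. The ratio of all summed CPM, 0.891, was 0.860 per kb, 1.17 without Hist2h2aa1 and 1.17 with genes of under 50% shared words. For H2A, 0.696 became 0.963 with the 2 such genes and 1.18 without Hist2h2aa1, and both sums include Hist2h2ab. H4 without Hist1h4a gave 1.75, the ratio of Hist1h4h alone, which passed the 1 CPM limit through the BPA library only. The testis variants' share was 3.01% (control) and 2.91% (BPA) per kb, and 5.31% and 3.85% with genes of under 50% shared words. The genes of under 50% shared words include Hist2h2ab, Hist2h3c1 and Hist1h4h, which passed the 1 CPM limit through the BPA library alone. With transcripts that lack a matched stem-loop counted by 3′ UTR length, 29.0% of genes running past it reached 1 CPM. Of those ending within the limit, 21.1% did. The order turned at 200 bases (22.7% and 28.6%) and with genes of under 50% shared words (30.8% of 26 and 40% of 5). Depth limits the genes with few reads, such as Hist2h3c1 with 24 and 59.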

Other observations

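Hist1h2al (H2af-ps2), which RefSeq holds as a transcribed pseudogene on chromosome 13 (51200084 to 51203066) and which lies outside the set above, had 86.3 CPM in the control library and 44.8 CPM in the BPA library. It was 1.93-fold lower in the BPA library (95% interval 1.83 to 2.04, counting error only). Of its words of 50 bases, 65.5% also occur in Hist2h2aa1, which was lower in the BPA library, and 65.5% in its copy Hist2h2aa2, which was higher. The other transcribed pseudogene with a value, Hist3h2bb (H2bu1-ps), had 1.58 and 1.72 CPM, a ratio of 1.09 (0.774 to 1.53).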
